A study of Mus musculus with 10 samples.

Results

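The cell cycle genes described here are 38 genes that act in G1, in DNA replication or in mitosis. They were chosen by gene symbol from a named list, and all 38 were found among the 24470 gene entries of the count table. By role, 4 are G1 regulators (Ccnd1, Ccnd2, Ccnd3 and Cdkn1b) and 16 are replication genes (Mcm2 to Mcm7, Pcna, Rrm1, Rrm2, Tyms, Cdc6, Cdt1, E2f1, E2f2, Ccne1 and Ccne2). The other 18 act in G2 and mitosis and are called mitotic genes below (Mki67, Top2a, Cdk1, Ccna2, Ccnb1, Ccnb2, Aurka, Aurkb, Plk1, Bub1, Bub1b, Ttk, Cdc20, Birc5, Cenpe, Cenpf, Kif11 and Kif20a).

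A dividing cell passes from G1, where D-type cyclins tie division to growth signals, into S phase, where DNA is copied, and through G2 into mitosis, where the chromosomes are separated. Genes of DNA replication are switched on around the start of S phase, largely by E2F factors, and genes of mitosis later, in G2, largely through the DREAM and MYB-MuvB complexes. In the fetal testis Sertoli cells and interstitial cells divide, and germ cells divide for a short time before they enter mitotic arrest.

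C57BL/6 mouse embryos at E12.5 gave 5 pairs of testes, and the testes of each pair were cultured apart with their mesonephros for 48 h. The vehicle group (5 testes, 1 per embryo) received DMSO, and the GPI group (the other 5 testes) received GPI at 75 µM, a small molecule that inhibits glycogen phosphorylase, the enzyme that breaks down glycogen. The compound reaches all cells of the testis, and RNA was taken from the whole testis after the mesonephros was dissected away. The replicates are separate mice, and the comparison, paired by mouse, asks whether transcripts of replication and of mitosis moved with the treatment and whether they moved alike.

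The 10 libraries held from 10203679 to 15635322 counts. The GPI library of mouse 1 stood apart from the rest of its group. Its distance to the other GPI libraries was 21.74 to 27.81, as a chi-square per degree of freedom over genes above a minimum total count. The other 4 GPI libraries lay 7.483 to 11 from each other, and the vehicle libraries 6.42 to 21.18 from each other. Many fold changes that rest on that library are therefore also given without mouse 1. Means of summed levels include mouse 1. The tissue label was checked against Sertoli cell markers: the transcription factor gene Sox9 had 984 to 1545 normalized counts with vehicle and 1494 to 2141 with GPI, and Dhh had 109.6 to 323 and 179 to 505. Anti-Müllerian hormone, Amh, had 72.0 to 209.5 and 47.0 to 183, and Foxl2, a marker of the ovarian counterpart, 16.7 to 58.5 and 10.5 to 27.6. Normalized counts are counts scaled by TMM factors to the mean library size, and all fold changes below are log2 of GPI over vehicle.

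All 38 genes were expressed highly enough to be tested, and 4 were lower with GPI: cyclin D1 (Ccnd1) and the mitotic genes Mki67, Ttk and Cdc20. No replication gene was among them, and 0 of the 38 were higher. The test was edgeR's quasi-likelihood test, paired by mouse, and p-values were adjusted by Benjamini and Hochberg's method across 13941 genes, with an FDR under 0.05 called; the 4 are 10.5% of the 38. Of all tested genes, 3198 (22.9%) passed the same threshold, 1654 (11.9%) lower and 1544 (11.1%) higher. The share of the 38 genes that was lower is thus near that of all genes. The split depended on the scaling: with total counts only, 1972 of all tested genes were lower and 1238 higher. In that setting 7 of the 38 were called, all of them lower. The median log2 fold change of the 38 was −0.11, against 0.02 over all tested genes, and 30 of the 38 values were below 0, against 47.5% of all tested genes. In all 5 mice the GPI testis held less than the vehicle testis for 9 of the 38 genes, against 15.2% of all tested genes, and it held more for 0 of the 38, against 15.4%. An unadjusted p under 0.05 was reached by 11 of the 38 genes and by 34.0% of all tested genes. Most differences were small: 34 of the 38 log2 fold changes (89.5%) lay within 0.5 of 0, and so did 77.0% of those of all tested genes. DESeq2 called the same 4 genes (22.9% of all tested genes), and so did limma-voom (23.6%). Without mouse 1 the 4 were joined by Ccnd2, with 22.1% of all tested genes called. Without mouse 2 the call of Ttk was lost (edgeR, adjusted p = 0.052), and without mouse 3 those of Ttk (0.069) and Cdc20 (0.094), which left 2 of the 4, Ccnd1 and Mki67.

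**Figure D1:**
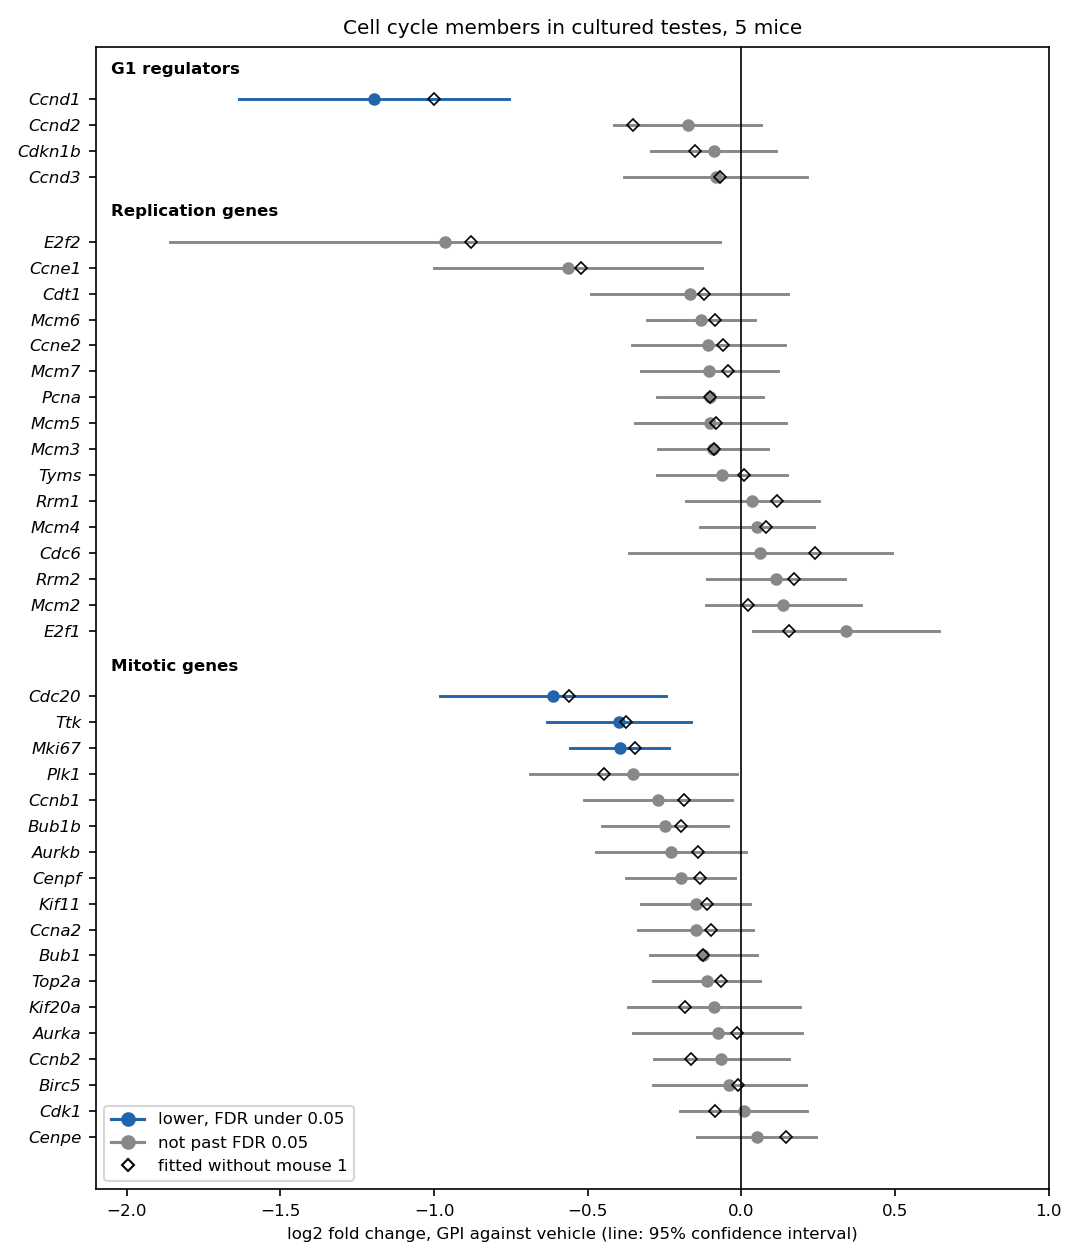
Log2 fold change of each of the 38 cell cycle genes, GPI against vehicle in 5 mice (points), with its 95% confidence interval (lines) and the value without mouse 1 (open diamonds). Blue marks the 4 genes lower at an FDR under 0.05; Ccnd1 lies at −1.20, Cdc20 at −0.61, and Mki67 and Ttk at −0.40.

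Transcript levels per kilobase of the longest annotated transcript spanned a wide range. In the vehicle testes Mki67, the proliferation antigen that coats mitotic chromosomes, had the highest mean level at 3665 normalized counts per kb. It was followed by Top2a, which untangles DNA, at 2227, by the kinetochore motor Cenpe at 1249 and by cyclin D2 (Ccnd2) at 1175. The sliding clamp Pcna led the replication genes at 734 normalized counts per kb, ahead of Mcm6 at 476 and Mcm4 at 396. Cyclin D1, with 93.5 normalized counts per kb, was far below cyclin D2 and closer to cyclin D3 (Ccnd3) at 69.4. The lowest levels belonged to the licensing factor Cdc6 at 32.7 and the transcription factor E2f2 at 10.3 normalized counts per kb, so values of E2f2 rest on few counts.

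Cyclin D1 fell most among the 38 genes across 5 mice. Without mouse 5, E2f2, which was not called, had a slightly lower value (−1.26 against −1.24). Ccnd1 (Entrez Gene 12443, chr7:144929931-144939925 of mm10) codes for the cyclin that joins CDK4 and CDK6 in G1. The vehicle testes of mice 1 to 5 held 588, 293.5, 379.7, 247 and 240.8 normalized counts of Ccnd1, and the GPI testes of the same mice 145.5, 240.8, 117.9, 124.1 and 118.8. The GPI testis was the lower of the pair in all 5 mice, but the groups met, since the GPI testis of mouse 2 and the vehicle testis of mouse 5 both stood at 240.8. The vehicle testis of mouse 1 was the highest of all and the GPI testis of mouse 2 was far above its group. The vehicle mean was 349.8 ± 144 and the GPI mean 149.4 ± 52.3 (SD, n = 5 each). The log2 fold change was −1.20 with a standard error of 0.20 (95% confidence interval −1.63 to −0.76; edgeR quasi-likelihood test, Benjamini-Hochberg adjusted p = 0.0007), and it was −1.001 without mouse 1 (edgeR, adjusted p = 0.0013).

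Cyclin D2, the most abundant of the D-type cyclins here, did not pass the test, and its value turned on a single library. Ccnd2 held 7400.1, 8108, 7384.5, 6797 and 7493 normalized counts in the vehicle testes and 10347, 6069.8, 6063.7, 5063 and 6438.5 in the GPI testes of mice 1 to 5. In mice 2 to 5 every GPI value lay below every vehicle value, whereas the GPI testis of mouse 1, the library that stood apart, held the most of all 10. Across 5 mice the log2 fold change of Ccnd2 was −0.17 (95% confidence interval −0.41 to 0.07; edgeR, adjusted p = 0.30). Without mouse 1 it was −0.35, and the edgeR test called Ccnd2 lower (adjusted p = 0.0028). Cyclin D3 stood at −0.08 (95% confidence interval −0.38 to 0.21), with the GPI testis lower in 4 of 5 mice. Its value was −0.23 without mouse 2 and −0.02 without mouse 3. The CDK inhibitor p27, Cdkn1b, stood at −0.09 (95% confidence interval −0.29 to 0.11), also lower in 4 of 5 mice. It stood at −0.15 without mouse 1 and at −0.03 without mouse 5. Of the 4 G1 regulators, then, 1 was called lower, as were 11.9% of all tested genes. All 4 values were below 0, against 47.5% of all tested genes, with a median of −0.13. Without mouse 1, 2 were called lower and the median was −0.25, with 22.1% of all tested genes called in either direction.

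**Figure D2:**
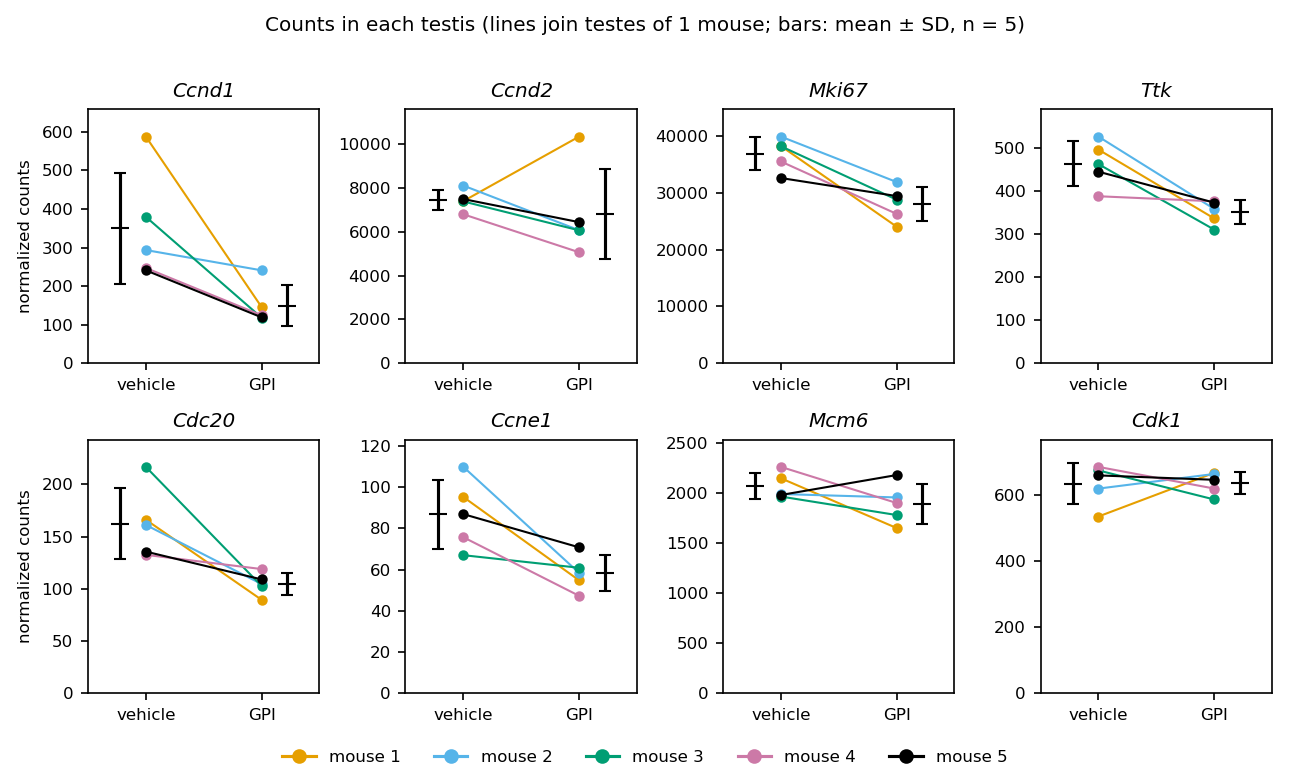
Normalized counts of 8 of the 38 genes in each testis; colored lines join the vehicle and GPI testes of 1 mouse, and black bars give the mean ± SD (n = 5). The lines of Ccnd1, Mki67, Ttk, Cdc20 and Ccne1 go down in 5 of 5 mice, Ccnd2 goes up in mouse 1 alone, and those of Mcm6 and Cdk1 are mixed.

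Among the 16 replication genes 0 were called in edgeR's test, and 0 by DESeq2 and by limma-voom; 3 had an unadjusted p under 0.05 (Ccne1, E2f1 and E2f2). Over all tested genes the shares were 22.9% called in edgeR and 34.0% with an unadjusted p under 0.05. Their median log2 fold change was −0.10, or −0.05 without mouse 1, and 10 of the 16 values were below 0. Summed per kb, the replication genes held 3490 ± 121 normalized counts per kb with vehicle and 3411 ± 267 with GPI (SD, n = 5 each), 97.7% of the vehicle mean. The sums overlapped: the GPI testis of mouse 5 was the highest of the 10 at 3755 and the GPI testis of mouse 1 the lowest at 3062. In mice 2 to 5 the vehicle testes held 3430, 3553, 3654 and 3336, and the GPI testes 3562, 3261, 3413 and 3755. The GPI testis was the lower of the pair in mice 1, 3 and 4 and the higher in mice 2 and 5. A test that does not pass the threshold does not show that levels were equal, so intervals are given for the genes below.

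The helicase that unwinds DNA ahead of the replication fork is built from Mcm2 to Mcm7. Of these 6 subunits 0 were called by edgeR, DESeq2 or limma-voom, and 0 had an unadjusted p under 0.05 in edgeR. Their log2 fold changes ran from −0.13 (Mcm6) to 0.14 (Mcm2), and their 95% confidence intervals reached no further than −0.35 below and 0.39 above 0. Mcm2 stood at 0.02 without mouse 1 and at 0.25 without mouse 2, Mcm4 (0.05) at −0.04 without mouse 5, and without mouse 1 Mcm6 stood at −0.09 and Mcm7 (−0.10) at −0.04. Mcm6 (Entrez Gene 17219, chr1:128331575-128359705) held 2150.4, 1993, 1968, 2264 and 1983 normalized counts in the vehicle testes of mice 1 to 5 and 1653, 1959, 1783, 1903 and 2182.5 in the GPI testes. It was lower with GPI in 4 of 5 mice and higher in mouse 5, and the groups overlapped. The promoter of Mcm6 is shown because it carries both motifs common among replication genes. In its 230 bases, from 200 before the transcription start to 30 after it (RefSeq, GRCm38.p6, chr1:128359676-128359905, minus strand, 5′ to 3′), capitals mark E2F motifs (TTTGGCGC or TTTCGCGC here) and CCAAT boxes on either strand; the longest run in capitals joins a pair of E2F motifs that overlap on opposite strands.
Mcm6: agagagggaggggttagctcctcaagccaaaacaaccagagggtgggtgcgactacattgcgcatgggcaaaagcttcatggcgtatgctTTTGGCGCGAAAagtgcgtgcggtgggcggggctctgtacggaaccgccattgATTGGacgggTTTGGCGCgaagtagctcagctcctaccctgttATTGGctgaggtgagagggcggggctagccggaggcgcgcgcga

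The sliding clamp, nucleotide and helicase loading genes among the replication genes gave small values as well. Pcna stood at −0.10 (95% confidence interval −0.27 to 0.07) and was lower with GPI in 4 of 5 mice. Ribonucleotide reductase makes deoxyribonucleotides from ribonucleotides; its subunits stood at 0.04 (Rrm1) and 0.11 (Rrm2), with upper bounds of 0.25 and 0.34. Thymidylate synthase, Tyms, which makes the thymine nucleotide, stood at −0.06 (95% confidence interval −0.28 to 0.15). The factors that load the helicase onto origins in G1 stood at 0.06 (Cdc6, interval −0.37 to 0.49) and −0.17 (Cdt1, interval −0.49 to 0.15). The signs of Rrm1, Tyms and Cdc6 are not settled, since Rrm1 changed sign with scaling by total counts only, without mouse 2 and without mouse 5, Tyms without mouse 1, and Cdc6 without mouse 2 and without mouse 3. Without mouse 1 Rrm1 stood at 0.12, Rrm2 at 0.17, Tyms at 0.01 and Cdc6 at 0.24. Rrm2 kept its sign but was near 0 (0.009) without mouse 2.

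The 3 replication genes with an unadjusted p under 0.05 did not have the same sign. Cyclin E1, Ccne1 (Entrez Gene 12447, chr7:38097984-38107490), which activates CDK2 at the G1 to S transition, held 95.2, 109.8, 67.0, 75.7 and 86.9 normalized counts in the vehicle testes of mice 1 to 5 and 54.8, 58.4, 60.9, 47.3 and 70.8 in the GPI testes. It was the only replication gene lower with GPI in all 5 mice, and the groups overlapped because the GPI testis of mouse 5 lay above the vehicle testis of mouse 3. Its log2 fold change was −0.56 with a standard error of 0.20 (95% confidence interval −0.999 to −0.13; edgeR, adjusted p = 0.062). Of 13 alternative settings, scaling by total counts and leaving out the replicate block called Ccne1 (edgeR, adjusted p = 0.041 and 0.042). The others did not, and the adjusted p in edgeR reached 0.16 without mouse 2. Its partner gene Ccne2 stood at −0.11 (95% confidence interval −0.36 to 0.14), or −0.06 without mouse 1. E2f1, an activator of S phase genes, held 279, 323.4, 424.3, 417.4 and 460.2 normalized counts with vehicle and 577.5, 424, 385.1, 478.7 and 541.5 with GPI. It was higher with GPI in 4 of 5 mice, most of all in mouse 1, and stood at 0.34 (95% confidence interval 0.04 to 0.64; edgeR, adjusted p = 0.10), or at 0.15 without mouse 1. The related E2f2 held 46.5, 16.7, 77.0, 50.8 and 53.3 normalized counts with vehicle and 17.9, 25.1, 14.3, 15.8 and 53.4 with GPI. It was lower in mice 1, 3 and 4 only, and stood at −0.96 (95% confidence interval −1.86 to −0.07; edgeR, adjusted p = 0.118). When mice were left out in turn E2f2 ran from −0.62 without mouse 3 (edgeR, adjusted p = 0.40) to −1.31 without mouse 2 (edgeR, adjusted p = 0.040), the only 1 of the 13 alternative settings to call it.

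Mitotic genes were called lower in 3 of 18 cases (16.7%, against 11.9% of all tested genes), and 0 were called higher; 2 were called lower without mouse 2 and 1 without mouse 3. Their median log2 fold change was −0.15, or −0.14 without mouse 1, and 16 of 18 values (88.9%) were below 0, against 47.5% of all tested genes. In 5 of 5 mice the GPI testis was lower for 7 of the 18 genes: Mki67, Ttk, Cdc20, Plk1, Ccnb1, Bub1b and Aurkb; the share over all tested genes was 15.2%. An unadjusted p under 0.05 was reached by 7 of the 18, and by 34.0% of all tested genes. Summed per kb, the mitotic genes held 11169 ± 722 normalized counts per kb with vehicle and 9733 ± 747 with GPI (SD, n = 5 each), 87.1% of the vehicle mean. Mki67 made up most of that difference: without it, the other 17 genes held 7503 ± 467 and 6942 ± 484, or 92.5% of the vehicle mean. The sums of all 18 overlapped, as the vehicle testis of mouse 5, at 9959.9 normalized counts per kb, lay below the GPI testes of mice 2 and 5. The GPI testis of mouse 1 was the lowest at 8684, against 9475 to 10656 in the other GPI testes. The 87.1% thus rests in part on that library. The difference between mitotic and replication genes was not tested. In bulk RNA, fewer dividing cells and less RNA of these genes per dividing cell cannot be told apart.

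Mki67 (Entrez Gene 17345, chr7:135689788-135716379), which codes for the Ki-67 protein, had the smallest adjusted p of the mitotic genes. The vehicle testes of mice 1 to 5 held 38222, 39885, 38188, 35502 and 32589 normalized counts, and the GPI testes 24024, 31885, 28784, 26275 and 29414. Every GPI testis lay below every vehicle testis; the GPI testis of mouse 1 was the lowest of all, and the pair of mouse 5 was the closest. Here and elsewhere, such separation is described for single genes, and its share over all tested genes is not given. The vehicle mean was 36877 ± 2866 and the GPI mean 28076 ± 3019 (SD, n = 5 each), and the fitted change was −24.0%. The log2 fold change of Mki67 was −0.40 with a standard error of 0.07 (95% confidence interval −0.56 to −0.24; edgeR quasi-likelihood test, Benjamini-Hochberg adjusted p = 0.0014), and −0.35 without mouse 1 (edgeR, adjusted p = 0.0029). Mki67 was called under each of the 13 alternative settings.

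Ttk and Cdc20 act at opposite ends of the spindle checkpoint. Ttk (Entrez Gene 22137, chr9:83834689-83872390) codes for the kinase MPS1, which starts the checkpoint at unattached kinetochores. It held 497, 527, 463, 388.5 and 446 normalized counts in the vehicle testes of mice 1 to 5 and 337, 359, 311, 377 and 374 in the GPI testes. The groups did not overlap, although in mouse 4 the pair differed little. Ttk stood at −0.40 with a standard error of 0.11 (95% confidence interval −0.63 to −0.16; edgeR, adjusted p = 0.017). Its adjusted p in edgeR was 0.052 without mouse 2 and 0.069 without mouse 3. Cdc20 (Entrez Gene 107995, chr4:118432901-118437343) codes for the activator of the anaphase-promoting complex, which the checkpoint holds back. It held 166, 161, 217, 132.5 and 136 normalized counts with vehicle and 89.5, 105, 103, 119 and 109 with GPI. Again every GPI testis lay below every vehicle testis, and the vehicle testis of mouse 3 was the highest. Cdc20 stood at −0.61 with a standard error of 0.17 (95% confidence interval −0.98 to −0.25; edgeR, adjusted p = 0.0185), and without mouse 3 at −0.51 (edgeR, adjusted p = 0.094). Reads were counted without regard to strand, and Cdc20 shares 53 bases with Elovl1 on the other strand, which stood at 0.35 (edgeR, adjusted p = 0.15). In all, 7 of the 38 genes overlap another entry of the table by start and end coordinates, introns included. Of these, 6 overlap on the other strand (Ccna2, Ccnd2, Ccnd3, Ccne2, Cdc20 and Kif20a). Reads in a shared stretch could not be assigned by strand, and whether they were counted for either gene was not checked.

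The other mitotic genes did not pass the test, and most lay a little below 0. Among kinases, Plk1, which drives mitotic entry, stood at −0.35 (edgeR, adjusted p = 0.13), or −0.45 without mouse 1 and −0.22 without mouse 3. The checkpoint kinase Bub1b stood at −0.25 (edgeR, adjusted p = 0.080), or −0.20 without mouse 1 (edgeR, adjusted p = 0.19). Aurkb, the kinase of the chromosomal passenger complex, stood at −0.23, its partner Birc5 at −0.04 and the spindle pole kinase Aurka at −0.08. Without mouse 1 these stood at −0.14, −0.01 and −0.01. Birc5 and Aurka both stood at −0.17 without mouse 2, and Birc5 at 0.02 without mouse 3. Cyclin B1, Ccnb1, which activates CDK1 for mitosis, stood at −0.27 (edgeR, adjusted p = 0.10), or −0.19 without mouse 1 (edgeR, adjusted p = 0.27). Ccnb2 stood at −0.06, at −0.16 without mouse 1 and at 0.01 without mouse 2. The kinesin Kif20a, which acts in cytokinesis, stood at −0.09, at −0.18 without mouse 1 and at 0.03 without mouse 2. The kinetochore protein Cenpf stood at −0.20 (edgeR, adjusted p = 0.11), or −0.14 without mouse 1 (edgeR, adjusted p = 0.27). The motor Kif11, which separates spindle poles, and the cyclin Ccna2 stood at −0.15, and Top2a at −0.11. Without mouse 1, Kif11, Ccna2 and Top2a stood at −0.11, −0.10 and −0.07. With scaling by total counts only, edgeR called Bub1b (adjusted p = 0.037) and Cenpf (adjusted p = 0.037) lower as well. Cdk1, the kinase that drives mitosis, gave no clear sign: it held 535.9, 620.5, 675.6, 686.3 and 660.5 normalized counts with vehicle and 668, 665, 588, 621 and 647 with GPI. It was higher with GPI in mice 1 and 2 and lower in mice 3 to 5, and its log2 fold change of 0.01 (95% confidence interval −0.20 to 0.21) took either sign depending on the scaling and was −0.09 without mouse 1. Cenpe stood at 0.05 (95% confidence interval −0.15 to 0.24) and was just below 0 with scaling by total counts only and without mouse 2, and 0.14 without mouse 1.

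Promoters of the mitotic genes share sequence motifs. The genes were named by symbol, not by motif. Genes of mitosis are, however, largely controlled through DREAM and MYB-MuvB, so the motif shares describe the list and are not an independent result. RefSeq promoters (GRCm38.p6, 250 bases before to 50 after the start) were found for 31 of the 38 genes, 34 promoters in all; Ccnd1, Ccnd2, Aurkb, Ccna2, Kif20a, Ccne2 and Mcm4 had none. A CHR element (TTTGAA or TTTAAA), the motif bound by DREAM and MYB-MuvB complexes, was present on either strand in 14 of 15 mitotic promoters (93.3%), 5 of 16 replication promoters (31.2%) and 27.6% of all 32851 promoters. The CCAAT box, bound by NF-Y, was present in 14 of 15 mitotic promoters (93.3%), 11 of 16 replication promoters (68.8%) and 37.4% of all. An E2F motif (TTTGGCGC, TTTGCCGC, TTTCGCGC or TTTCCCGC) was present in 1 of 15 mitotic promoters (6.67%, that of Cdk1), 7 of 16 replication promoters (43.8%) and 2.26% of all. A CHR element and a CCAAT box occurred together in 13 of 15 mitotic promoters (86.7%), 4 of 16 replication promoters (25.0%) and 10.7% of all. Different motifs overlapped in 1 of the 34 promoters, that of an Mcm7 transcript. A match is a run of letters, not a shown binding site.

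**Figure D3:**
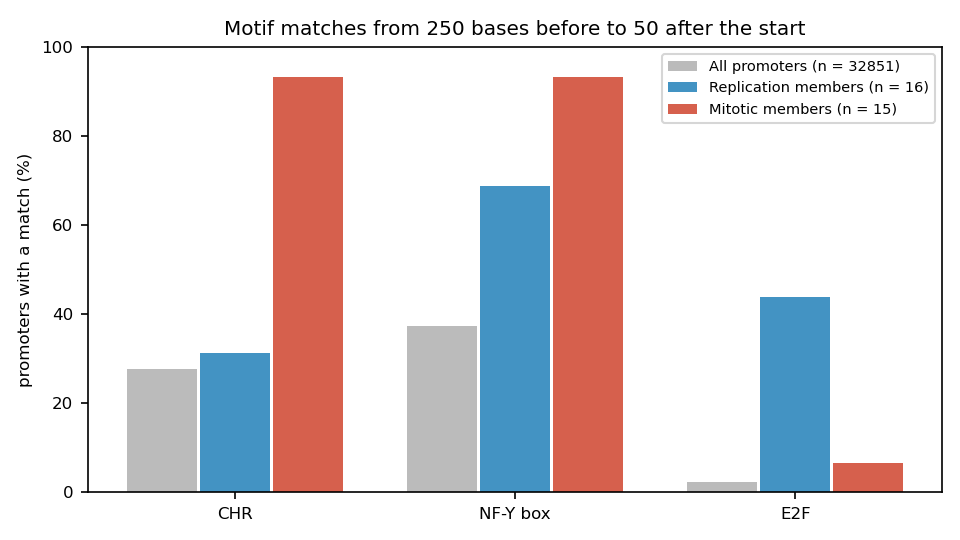
Percent of promoters, from 250 bases before to 50 after the transcription start, that hold a CHR element, an NF-Y box (CCAAT) or an E2F motif on either strand, in all 32851 promoters, 16 replication promoters and 15 mitotic promoters. Mitotic promoters reach 93.3% for CHR and for the NF-Y box, replication promoters 43.8% for E2F.

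The promoters of the 3 mitotic genes called lower are shown with that of Cdk1, which was not called. Each holds at least 1 CHR element and more than 1 CCAAT box, so these motifs do not set the called genes apart from Cdk1. The sequences run 5′ to 3′ on the gene's strand over 230 bases, from 200 before the start to 30 after it, in RefSeq GRCm38.p6: chr7:135716350-135716579 (Mki67, minus strand), chr9:83834489-83834718 (Ttk, plus strand), chr4:118437314-118437543 (Cdc20, minus strand) and chr10:69352883-69353112 (Cdk1, minus strand). Capitals mark CHR elements, CCAAT boxes and, in Cdk1, the E2F motif TTTCGCGC, each on either strand.
Mki67: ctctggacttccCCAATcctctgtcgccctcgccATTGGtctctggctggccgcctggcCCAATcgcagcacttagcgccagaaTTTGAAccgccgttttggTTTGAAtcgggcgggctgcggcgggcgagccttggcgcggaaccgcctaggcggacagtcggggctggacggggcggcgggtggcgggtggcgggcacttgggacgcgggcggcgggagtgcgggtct
Ttk: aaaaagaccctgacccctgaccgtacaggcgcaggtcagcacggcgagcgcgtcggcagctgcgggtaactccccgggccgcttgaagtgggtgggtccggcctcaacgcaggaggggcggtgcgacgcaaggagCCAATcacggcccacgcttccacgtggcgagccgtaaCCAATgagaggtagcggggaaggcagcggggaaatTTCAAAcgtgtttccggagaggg
Cdc20: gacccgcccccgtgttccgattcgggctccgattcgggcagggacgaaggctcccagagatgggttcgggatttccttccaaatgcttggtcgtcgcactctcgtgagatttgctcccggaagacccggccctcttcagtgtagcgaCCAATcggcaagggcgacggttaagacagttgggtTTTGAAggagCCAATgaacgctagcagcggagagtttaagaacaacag
Cdk1: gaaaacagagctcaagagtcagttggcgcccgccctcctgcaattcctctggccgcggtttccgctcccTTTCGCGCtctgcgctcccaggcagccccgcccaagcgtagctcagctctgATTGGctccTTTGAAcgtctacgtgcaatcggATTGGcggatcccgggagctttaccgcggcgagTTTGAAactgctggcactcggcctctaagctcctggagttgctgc

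The pairs of testes differed from mouse to mouse. The median log2 ratio of the 18 mitotic genes, GPI to vehicle testis, was −0.40, −0.14, −0.29, −0.12 and −0.02 in mice 1 to 5. For the 16 replication genes the medians were −0.36, 0.07, −0.14, −0.06 and 0.14. All 5 medians were below 0 for mitotic genes, that of mouse 5 only just, and for replication genes those of mice 2 and 5 were above 0. In mouse 1 both groups were at their lowest, with 15 of 18 mitotic and 14 of 16 replication genes lower in the GPI testis. Mouse 5 was the other extreme: 11 of 18 mitotic genes were lower and 7 higher, 13 of 16 replication genes were higher, and the sum of the mitotic genes per kb was higher with GPI (10190.3) than with vehicle (9959.9). Mouse 3 had 17 of 18 mitotic and 14 of 16 replication genes lower, while mouse 2 had 13 of 18 mitotic but only 6 of 16 replication genes lower. Within each mouse the median of the mitotic genes lay below that of the replication genes. Over all tested genes the medians of the 5 mice lay between 0.0056 and 0.024.

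**Figure D4:**
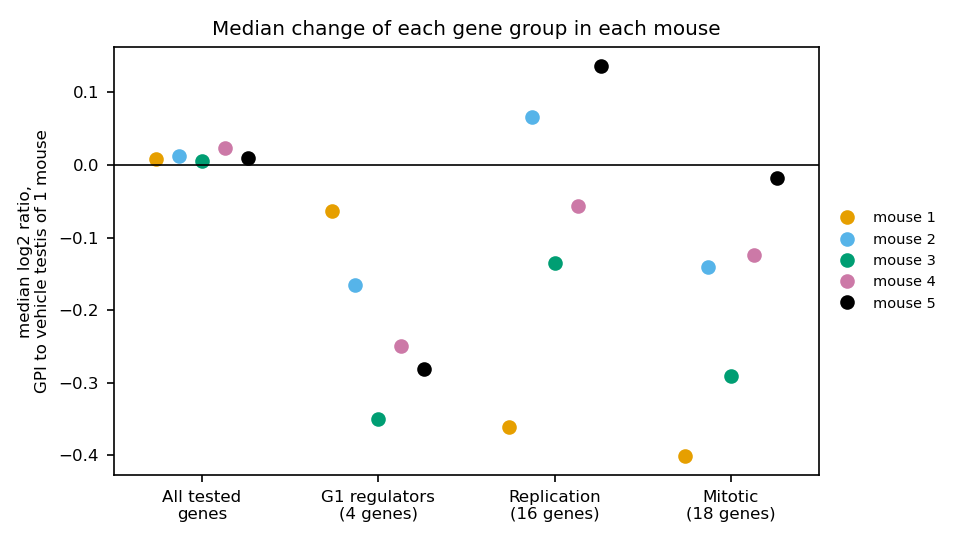
Median log2 ratio, GPI to vehicle testis of the same mouse, of all tested genes, 4 G1 regulators, 16 replication genes and 18 mitotic genes; each point is 1 mouse. Mitotic medians run from −0.40 (mouse 1) to −0.02 (mouse 5), replication medians from −0.36 (mouse 1) to 0.14 (mouse 5).

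Beyond the 38 genes, 10 wider lists held 233 other cell cycle genes by role, of which 229 were tested. Of these, 14 were called higher (6.11%) and 18 lower (7.86%) by edgeR, 14.0% in all against 22.9% of all tested genes, and their median was −0.08. This balance depended on the scaling. With total counts only, no list had fewer lower or more higher calls. The kinetochore and condensin lists below then had 4 and 6 lower genes, and 0 higher in each. Untested for low counts were Cdkn2a, Cdkn2b, Ccna1 and Ccnb3. Of 37 spindle, kinesin and kinase genes, 8 were lower, 1 was higher and 32 values were below 0 (median −0.10). The lower genes are 21.6% of this list, against 11.9% of all tested genes, but their number was 5, 4, 4, 5 and 6 when mice 1 to 5 were left out in turn. With all 5 mice, the other settings gave 8 to 11 lower genes. Scaling by total counts only gave 11 lower and 0 higher. Cit, which codes for citron kinase of the cleavage furrow, fell by 0.63 with a standard error of 0.11 (edgeR, adjusted p = 0.0006). Kif14, its partner motor, stood at −0.36 (edgeR, adjusted p = 0.018), and Anln, the furrow protein anillin, at −0.34 (edgeR, adjusted p = 0.0092). The other 5 lower genes were Nusap1, Melk, Kif15, Kif18b and Plk4, and the higher gene was Pbk; these were named after their values were seen. Of 36 kinetochore and centromere genes, 29 values were below 0 (median −0.15), but 1 gene was called, Ndc80 of the outer kinetochore (−0.31; edgeR, adjusted p = 0.032). The next smallest p-values of that list belonged to Hjurp (−0.23) and Ska2 (0.29), which were not called. Without mouse 3, 0 genes of that list were called, and without mouse 5, 3 were. Of 22 condensin, cohesin and chromosome structure genes, 3 were lower and 1, the histone variant gene H2az1 (0.39, named after its value was seen), was higher, with a median of −0.11; 6 were lower without mouse 2. The lower genes were the cohesin subunit Smc1a (−0.34), the chromatin protein Hmgb2 (−0.32) and the condensin subunit Ncapd2 (−0.39). Of 18 genes of the anaphase-promoting complex and mitotic exit, Anapc2 was lower (−0.37) and Anapc15 higher (0.77), Anapc4 was not called (−0.20), and the median was −0.07. The calls of Cit, Anln, Smc1a, Hmgb2, Ncapd2 and Anapc15 held under each of 13 alternative settings. The other calls on these lists were lost when at least 1 mouse was left out, with adjusted p-values over the 13 settings of up to 0.158 for H2az1 (called in 6 of 13), 0.133 for Pbk (7 of 13), 0.126 for Plk4 (9 of 13), 0.119 for Kif18b (5 of 13) and 0.118 for Kif15 (9 of 13). For Ndc80, Melk, Anapc2, Kif14 and Nusap1 the highest adjusted p-values were 0.088, 0.087, 0.084, 0.074 and 0.069.

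Of 26 origin licensing and firing genes, 0 were lower and 2 were higher, Mtbp (0.36) and the origin recognition subunit Orc4 (0.22), which is 7.69% of the list against 11.1% of all tested genes. The median was 0.03, or 0.05 without mouse 1, −0.01 without mouse 2 and −0.02 without mouse 4. The call of Orc4 held under 1 of 13 alternative settings. Orc1 stood at 0.32 without a call, and 6 of the 26 genes were higher in all 5 mice, as were 15.4% of all tested genes. Of 27 genes of replicative polymerases and fork proteins, 1 was lower (3.70%, against 11.9% of all tested genes), or 3 without mouse 2, with a median of −0.13. The lower gene was the PCNA-binding protein gene Pclaf (−0.42). DNA ligase 1, Lig1 (−0.21), and the clamp loader subunit Rfc4 (0.30) were not called. Of 16 nucleotide supply genes, 3 were higher (18.8%, against 11.1% of all tested genes) or 2 without mouse 1, 3 or 4, and 0 were lower, or 1 without mouse 2 and with scaling by total counts only, with a median of 0.00: Gmps, which makes GMP (0.33), Ctps, which makes CTP (0.37), and the nucleotide kinase gene Cmpk2 (1.02). The calls of Pclaf, Gmps and Cmpk2 held under each of 13 alternative settings, that of Mtbp under all but 1 (without mouse 3; edgeR, adjusted p = 0.067) and that of Ctps under 8, being lost without mouse 1, 3 or 4 among others.

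Of 21 E2F, DREAM and RB regulators, 4 were called higher and 1 lower, 23.8% in all, near the 22.9% of all tested genes. Their median was −0.11, or −0.04 without mouse 1 and −0.01 without mouse 2, and 2 were called higher without mouse 3. With scaling by total counts only, 3 were called higher and 4 lower. The number called lower was 2 without mouse 1 or 2, and 0 without mouse 4 or 5. The MYB family gene Mybl1 held 663 ± 81.8 normalized counts with vehicle and 1239 ± 240 with GPI (SD, n = 5 each), a log2 fold change of 0.89 (edgeR, adjusted p = 0.0002), and the groups did not overlap. The repressor gene E2f6 (0.46) and the E2F partner gene Tfdp2 (0.29) were also higher, as was the pocket protein gene Rbl2 (0.28), and Myc was lower (−0.30); Rbl2 and Myc were named after their values were seen. The calls of Mybl1 and E2f6 held under each of 13 alternative settings, that of Tfdp2 under 12 (lost without mouse 3; edgeR, adjusted p = 0.095), that of Myc under 9 and that of Rbl2 under 8. Of 19 tested CDK, cyclin and CDC25 genes, Ccng1 rose most: cyclin G1, a p53 target, went from 2022 ± 270 normalized counts to 4002 ± 682 (SD, n = 5 each), a log2 fold change of 0.98 (edgeR, adjusted p = 2.9e-06). Lower were Ccng2 (−0.40) and Cdk6 (−0.66), a partner of the D-type cyclins, and the median was 0.09. A list of 7 tested genes held 5 CDK inhibitor genes and the BTG family genes Btg1 and Btg2, which restrain proliferation but are not CDK inhibitors. Of these, Cdkn1c, which codes for p57, was higher (0.71) and Btg1 lower (−0.51), with Btg2 at 0.35 and not called. The calls of Ccng1, Ccng2, Cdk6, Cdkn1c and Btg1 held under each alternative setting. Cdkn1a, which codes for p21 and is named after its values were seen, had 987 normalized counts in the GPI testis of mouse 1 against 267 to 569.6 in the other GPI testes. It stood at −0.28, and without mouse 1 at −0.48, where edgeR called it (adjusted p = 0.035).

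**Figure D5:**
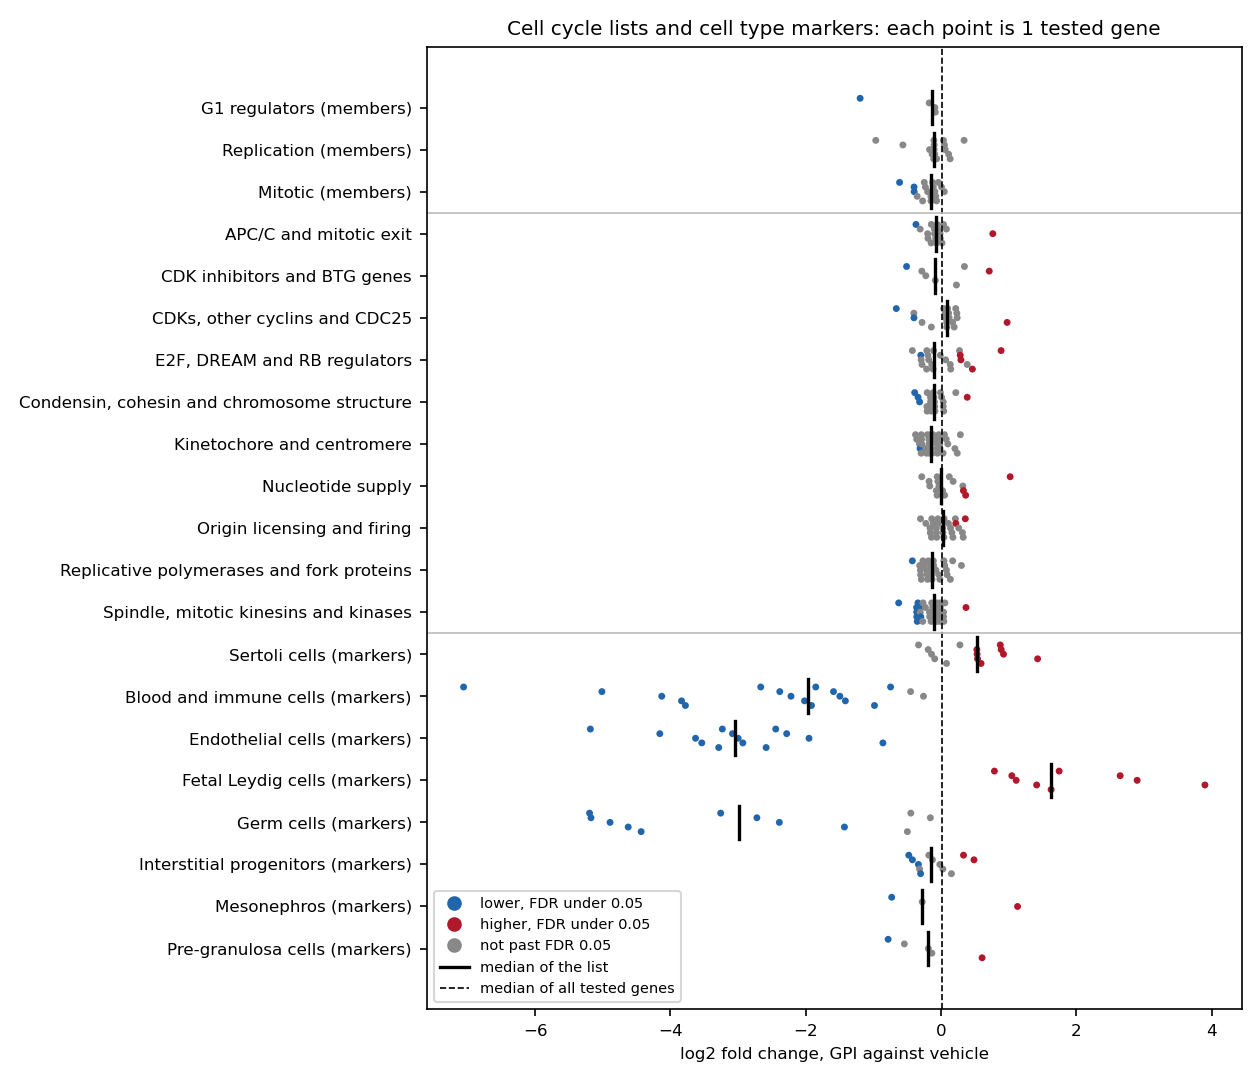
Log2 fold change, GPI against vehicle, of every tested gene of the 38 (top), of 10 wider cell cycle lists (middle) and of 8 lists of cell type markers (bottom); each point is 1 gene, colored when its FDR is under 0.05. Cell cycle medians (black bars) lie between −0.15 and 0.09, those of endothelial, germ cell and fetal Leydig markers at −3.04, −2.99 and 1.63.

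Markers of several cell types moved with the treatment in the same libraries. Over all tested genes 11.9% were called lower and 11.1% higher. Endothelial markers were lower in 14 of 14 genes (median −3.04), and their summed level went from 10912 ± 520 normalized counts to 1240 ± 292 (SD, n = 5 each), 11.4% of vehicle. Erg, the most abundant per kb, went from 2297 ± 197 to 254 ± 102. Germ cell markers were lower in 9 of the 12 that were tested of 18 (median −2.99), with a summed level of 2751 ± 789 with vehicle and 1056 ± 97.9 with GPI, 38.4% of vehicle. Dppa3 was the most abundant germ cell marker per kb, and the defining marker Ddx4 had 168, 353, 220, 347 and 113.5 normalized counts with vehicle and 44.8, 34.9, 13.3, 14.7 and 80.6 with GPI. Blood and immune cell markers were lower in 16 of 18 genes (median −1.97), at 36.0% of the vehicle sum, with Hbb-y the most abundant.

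Fetal Leydig cell markers were higher in 9 of 9 tested genes (median 1.63), against 11.1% of all tested genes, with a summed level of 4475 ± 1929 with vehicle and 17183 ± 4214 with GPI, 384% of vehicle, and Hsd3b1 the most abundant. Sertoli cell markers were higher in 8 of 14 (median 0.53), at 120% of the vehicle sum, with Wt1 the most abundant. Of 12 interstitial progenitor markers 2 were higher and 4 lower (median −0.15), against 11.1% and 11.9% of all tested genes, at 93.1% of the vehicle sum, with Col1a1 the most abundant. Without mouse 1 the interstitial list had 3 higher and 5 lower with a median of −0.24. Among 3 tested mesonephros markers 1 was higher and 1 lower, at 71.5% of the vehicle sum, with Emx2 the most abundant, and the same counts held among 5 tested pre-granulosa markers, at 74.8% with Rspo1. The medians of these short lists were −0.28 and −0.19, or −0.01 and −0.41 without mouse 1. No marker of these 8 lists was at 0 in all 10 libraries. The part of these cell types in the values of Ccnd1, Mki67, Ttk, Cdc20 and the other cell cycle genes was not tested.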

How the data were processed

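RNA of 10 cultured testes, 5 with vehicle and 5 with GPI, was measured by sequencing. Per the submitters' processing notes, reads were mapped to mm10 with STAR 2.5 and counted per gene of NCBI RefSeq Curated, without regard to strand, with featureCounts of Subread 1.5.0-p1. The authors deposited raw counts, which were used as they are.

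Computed here were TMM factors over all 10 libraries, edgeR's filterByExpr with at least 10 counts and a total of 15 (13941 of 24470 entries passed), and edgeR's quasi-likelihood test on a design of mouse plus treatment, with p-values adjusted by Benjamini and Hochberg's method across the tested genes. The standard error is the size of the log2 fold change over the root of F, and 95% confidence intervals use the t quantile. Ratios within a mouse used log2 values of the scaled counts (prior count 2). Levels per kb use the longest GENCODE M21 transcript. Promoters come from RefSeq (GRCm38.p6).

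Pairing from the same animal was checked by the correlation of each library's deviation from its group mean with that of its partner: r averaged 0.06 within mice and −0.015 between them. The steps were tested on simulated data. Alternatives were other scalings, DESeq2, limma-voom, no replicate block, other count filters and leaving out each mouse.

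The members and lists were chosen with earlier results of these data known. Genes named are all 38 members, the 3 of each wider list with the smallest p, and of each marker list the most abundant and defining ones; any other is said to be named after its values were seen. Precision is taken from the spread between mice, since counts of amplified libraries are not independent molecules. The fits ran in R 4.3.3 with limma 3.58.1, edgeR 4.0.16 and DESeq2 1.42.0. Tables and figures were made in Python 3.11.15 with pandas 2.3.3, numpy 2.4.6 and matplotlib 3.10.9.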

Additional observations from a re-analysis of the deposited data

Results flagged for a closer look

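In 8 of 76 groups, the 38 genes in each treatment, a single testis lay far from the other 4 by Dixon's criterion; chance alone picks out about 1 in 20 groups. With GPI, these were Ccnd1 in mouse 2 at 240.8 normalized counts (next 145.5), Ccnd2 in mouse 1 at 10347.2 (next 6438.5), Plk1 in mouse 3 at 121.7 (next 174.6) and E2f2 in mouse 5 at 53.4 (next 25.1). With vehicle, they were Ccnd3 in mouse 2 at 200.5 (next 275.0), Kif20a in mouse 2 at 371.1 (next 285.9), Top2a in mouse 5 at 9630.8 (next 11916.2) and Tyms in mouse 5 at 639.2 (next 763.7). Of the 4 genes called lower, Ccnd1 alone is among these 8, and its testis lies on the side of the vehicle group.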

How the results depend on the processing

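Among 494 log2 fold changes of the 38 genes under 13 alternatives, 466 kept their direction and their side of the threshold; Ccnd1 and Mki67 were called under each. With total counts only, 1 replication gene (Ccne1) and 5 mitotic genes (Bub1b and Cenpf added) were called. Without the replicate block, 1 replication gene (Ccne1) was called. When each mouse was left out in turn, called genes ranged from 0 to 1 for replication (E2f2, without mouse 2), from 1 to 3 for mitosis (without mouse 3, Mki67 alone) and from 1 to 2 for G1 (Ccnd2, without mouse 1). Over all alternatives the medians ran from −0.15 to −0.05 for replication and from −0.22 to −0.13 for mitosis, and 2311 to 3472 of all genes were called. Of the 32 wider genes called, 16 were called under each alternative and 0 changed sign.

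A change of sign occurred in 9 genes, none of them called. Cdk1 stood at −0.0017 with DESeq2 size factors, −0.0024 with upper quartile scaling, −0.044 with total counts, −0.0018 in DESeq2 and −0.0026 with at least 10 counts in every library. With total counts Cenpe stood at −0.0014 and Rrm1 at −0.015. With each mouse left out in turn, the values ran from −0.086 to 0.046 for Cdk1, from −0.016 to 0.14 for Cenpe, from −0.17 to 0.020 for Birc5, from −0.16 to 0.010 for Ccnb2 and from −0.18 to 0.028 for Kif20a. For replication genes they ran from −0.15 to 0.24 (Cdc6), −0.040 to 0.081 (Mcm4), −0.036 to 0.12 (Rrm1) and −0.13 to 0.0093 (Tyms). Leaving out a mouse leaves 4 pairs; otherwise the cause was not tested.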
